A study of Homo sapiens with 4 samples.

Results

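The carriers that move amino acids across the membranes of human cells were taken here as 41 protein-coding genes of the SLC1, SLC3, SLC7, SLC36, SLC38 and SLC43 families together with SLC6A9, out of 64252 genes in the count table. They were chosen by gene symbol, so no measured value decided whether a gene of these families entered. The families themselves were picked with the dBET1 against DMSO values of these libraries known, SLC38A5 being among the most changed genes. The fold changes and calls of the 41 genes in that comparison are therefore a description and no test of the set.

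RNA was sequenced from cells labelled NB4, which were kept for 24 h with 8 μM dBET1 (2 libraries) or with the same volume of DMSO, its solvent (2 libraries). NB4 is a promyelocytic leukemia line carrying the PML-RARa fusion. dBET1 is a degrader that joins a ligand of the BET bromodomain proteins to a ligand of CRBN, the substrate receptor of an E3 ubiquitin ligase. The deposited values are whole-number counts per gene, summing to between 28019956 and 34685645 per library, and nothing in the labels says that the 2 libraries of a group came from separate cultures. The p-values behind the calls then measure only the spread between these libraries, which may be technical.

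The labelled cell type was checked against marker genes. Of 5 promyelocyte granule genes, ELANE and CTSG were at 0 in every library, and MPO, AZU1 and PRTN3 brought the total to no more than 17 and 15 counts with DMSO and 55 and 25 with dBET1. The 8 erythroid markers, among them HBG1, HBG2 and GATA1, had at least 10 counts in every library, and their summed level was 5477 and 6653 CPM (counts scaled by the normalized library size) with DMSO and 3174 and 3121 CPM with dBET1. The 5 myeloid surface markers together had 441 and 424 counts with DMSO and 606 and 585 with dBET1. Of these, 3 had at least 10 counts in every library. The granule and erythroid markers go against the label, while some myeloid surface markers were present, so the cells are called by it only as labelled. The summed erythroid markers were lower with dBET1, as were the transporter genes called lower, and their part in those results was not tested. In bulk RNA, fewer cells of a type and less RNA per cell cannot be told apart.

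Amino acid carriers fall into a few mechanisms. Sodium-coupled carriers such as SLC38A1 and SLC38A2 accumulate small neutral amino acids, and obligate exchangers such as SLC1A5 and the SLC7 light chains swap what has been accumulated for other amino acids, including the large essential ones. The SLC7 light chains reach the plasma membrane only as partners of a heavy chain, SLC3A2 or SLC3A1. Other members sit on the lysosome, where amino acids released by protein breakdown are exported and sensed by the mTORC1 pathway.

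Of the 41 genes, 22 had enough counts to be tested, and a gene was called when its adjusted p was under 0.05 in edgeR's quasi-likelihood test fitted over all 17971 tested genes. With dBET1, 9 members were called lower: SLC1A5, SLC7A1, SLC7A5, SLC7A6, SLC7A8, SLC38A1, SLC38A5, SLC38A6 and SLC43A3. Another 5 were called higher: SLC3A2, SLC7A4, SLC36A1, SLC38A9 and SLC38A10. Of these, SLC7A4 had 3 and 2 counts with DMSO and entered the test only through the dBET1 libraries, where it is higher. The lower calls were 40.9% of the tested members, beside 27.6% of all tested genes, and the higher calls were 22.7%, beside 28% of all tested genes. With an absolute log2 fold change above 1 as well, only SLC38A5 and SLC43A3 were lower (9.09%, beside 8.54% of all tested genes) and only SLC7A4 was higher (4.55%, beside 16.9%). The number of higher genes fell from 5 to 2 when either dBET1 library was left out. Since the families were picked from this comparison, nothing is read from these shares.

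The median log2 fold change of the 22 tested members was -0.18, and that of all tested genes was 0.048. The members' median was -0.0027 without DMSO replicate 1 and -0.40 without DMSO replicate 2. Abundant genes as a whole were lower in these libraries. Among the 2226 tested genes with a mean of at least 100 CPM, 61.5% were called lower and 13.7% higher, and the median was -0.40. Among the 10 transporter genes at that level, 7 were called lower and 2 higher, and the median was -0.78. In 11 of the 22 tested members both dBET1 libraries lay below both DMSO libraries, in 6 both lay above, and in 5 the groups overlapped. The same count was not made over all tested genes, so nothing about the members as a set is read from these numbers.

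**Figure D1:**
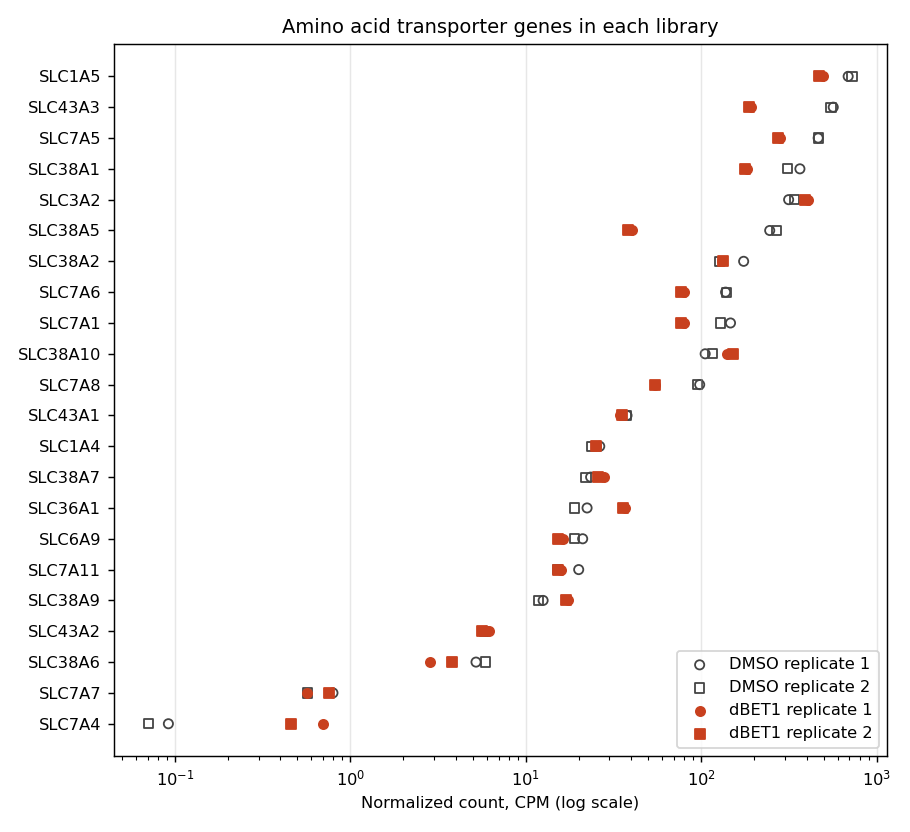
Normalized count (CPM, log scale) of each of the 22 tested transporter genes, with 1 point for each DMSO library and each dBET1 library. SLC1A5 is the most abundant in every library, and the dBET1 points of SLC38A5 lie near 39.2 CPM, far to the left of its DMSO points near 257 CPM.

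The counts of all 41 genes together summed to 3484 and 3427 CPM with DMSO and to 2264 and 2207 CPM with dBET1. The dBET1 sum was 0.647 times the DMSO sum, and 0.706 times without SLC43A3, whose product is better known as a nucleobase carrier. On this scale the CPM of all genes together also sum to less with dBET1. The normalization factors were 0.941 and 0.918 with DMSO and 1.07 and 1.08 with dBET1. A ratio of 1 between sums is therefore not the level of the whole count table. The groups by role did not move alike. System N, which is here almost only SLC38A5, was at 0.153 times its DMSO sum, the SLC7 light chains were at 0.593 times, system A at 0.638 times and the neutral exchangers of SLC1 at 0.692 times. The SLC3 heavy chains were at 1.21 times, the SLC38 members outside systems A and N at 1.28 times and the proton-coupled SLC36 carriers at 1.74 times.

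**Figure D2:**
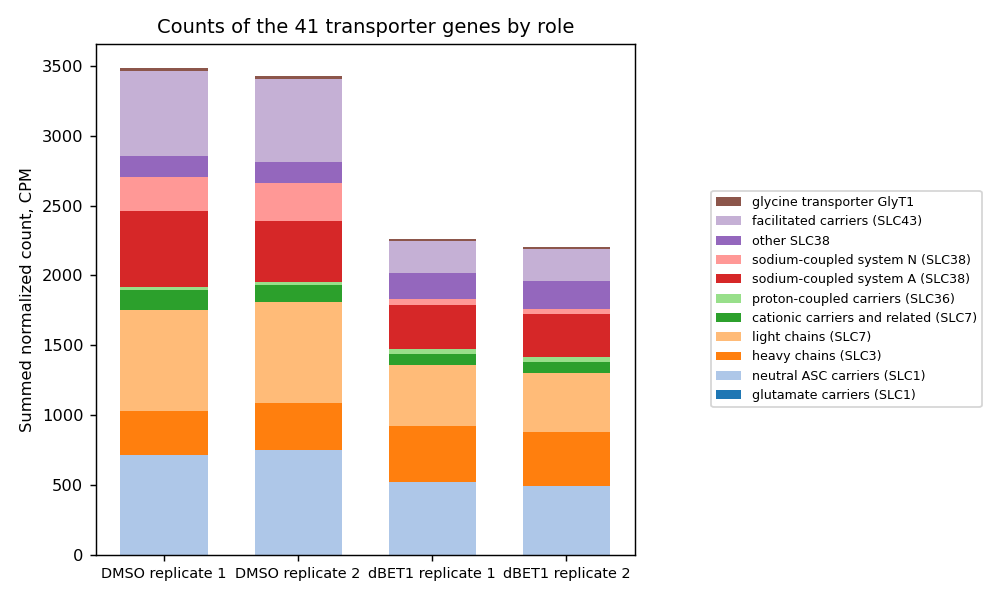
Summed normalized count (CPM) of the 41 transporter genes in each library, stacked by role from 0. The 2 dBET1 bars stand near 2236 CPM and the 2 DMSO bars near 3455 CPM, and the segments of SLC43 and of system N shrink most in height relative to their DMSO segments. The CPM of all genes together also sum to less with dBET1 on this scale.

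SLC38A5 (ENSG00000017483; hg38 chromosome X, 48458537 to 48470260, reverse strand) encodes SNAT5, a system N carrier that brings in glutamine, asparagine, histidine, serine and glycine with sodium in exchange for a proton. It had 8021 and 7549 counts with DMSO and 1212 and 1163 with dBET1. Both dBET1 libraries were far below both DMSO libraries. The level fell from 257 ± 16.1 to 39.2 ± 1.62 CPM (mean ± SD, n = 2 per group), which is 6.55-fold lower, with a log2 fold change of -2.71 ± 0.0869 (SE). Among the 22 tested members it had the lowest log2 fold change, also under each of the 11 other settings. The 250 bases before its start are shown because they precede the called member that was lowest relative to DMSO, and they hold no exon of GENCODE. They come from the RefSeq promoter table on GRCh38.p14 and run 5′ to 3′ on the gene's strand, with the E-box hexamer CACGTG in capitals.

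SLC38A5, chrX:48470261-48470510, reverse strand: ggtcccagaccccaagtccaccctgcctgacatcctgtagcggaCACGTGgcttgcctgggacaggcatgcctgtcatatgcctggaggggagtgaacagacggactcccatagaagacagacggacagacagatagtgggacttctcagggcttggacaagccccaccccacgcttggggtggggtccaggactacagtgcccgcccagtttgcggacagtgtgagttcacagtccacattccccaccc

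The other system N gene, SLC38A3, had 0 and 9 counts with DMSO and 7 and 0 with dBET1. It was too low to be tested.

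System A is carried by SLC38A1 and SLC38A2, which concentrate alanine, serine and glutamine in the cell with sodium. SLC38A1 (ENSG00000111371; chromosome 12, 46183063 to 46270017, reverse strand) was counted 11922 and 8720 times with DMSO and 5452 and 5392 with dBET1. It fell from 338 ± 38.9 to 179 ± 3.55 CPM (mean ± SD, n = 2 per group; log2 fold change -0.92 ± 0.0915 SE). Its neighbour SLC38A2 (chromosome 12, 46358188 to 46372773, reverse strand) was counted 5698 and 3561 times with DMSO and 3950 and 4081 with dBET1. Its level was 151 ± 33.9 and 133 ± 1.47 CPM (mean ± SD, n = 2 per group). The DMSO libraries of SLC38A2 lay on both sides of the dBET1 libraries in CPM, and its log2 fold change of -0.18 ± 0.138 (SE) was not called. Without DMSO replicate 2 the value for SLC38A2 was -0.43 and was called. SLC38A4, the remaining system A gene, had 3 counts in 1 DMSO library and 0 in the other libraries. Per kilobase of exon, SLC38A5 stood at 1.68 and 2.16 times SLC38A1 in the DMSO libraries and at 0.554 and 0.538 times in the dBET1 libraries. In CPM, without division by exon length, SLC38A1 was above SLC38A5 in every library. The order of the 2 genes with DMSO therefore depends on the exon lengths used.

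SLC1A5 (ENSG00000105281; chromosome 19, 46774883 to 46788594, reverse strand) encodes ASCT2, a sodium-dependent exchanger that is a main route for glutamine. It had 22459 and 20336 counts with DMSO and 14823 and 14281 with dBET1. The level fell from 706 ± 25.0 to 481 ± 18.4 CPM (mean ± SD, n = 2 per group; log2 fold change -0.55 ± 0.0707 SE), with no overlap between the groups. SLC1A4 (chromosome 2, 64988477 to 65023865, forward strand) encodes ASCT1, which exchanges alanine, serine and cysteine, and had 862 and 665 counts with DMSO and 759 and 765 with dBET1. Its groups overlapped at 25.0 ± 1.95 and 25.2 ± 0.162 CPM (mean ± SD, n = 2 per group), and it was not called. The 5 glutamate carriers of the same family had next to no counts. SLC1A2, SLC1A6 and SLC1A7 were at 0 in all libraries, SLC1A1 had 1 count and SLC1A3 had 2 counts in a single dBET1 library.

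SLC3A2 (ENSG00000168003; chromosome 11, 62856004 to 62888880, forward strand) encodes 4F2hc, also known as CD98, the heavy chain that brings most SLC7 light chains to the cell surface. It had 10282 and 9607 counts with DMSO and 12146 and 11859 with dBET1. It rose from 328 ± 18.9 to 397 ± 11.5 CPM (mean ± SD, n = 2 per group; log2 fold change 0.27 ± 0.0743 SE), and the groups did not overlap. The call was lost without a count filter and when either dBET1 library was left out. SLC3A1, the heavy chain of the cystine carrier of kidney and gut, had 4 and 6 counts with DMSO and 18 and 9 with dBET1 and was not tested. It also shares 1923 exon bases with PREPL on the other strand.

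Of the light chains that pair with SLC3A2, 3 were called lower. SLC7A5 (ENSG00000103257; chromosome 16, 87830023 to 87869507, reverse strand) encodes LAT1, the exchanger of leucine and other large neutral amino acids. It had 15150 and 13131 counts with DMSO and 8459 and 8348 with dBET1, and it fell from 466 ± 2.11 to 278 ± 5.93 CPM (mean ± SD, n = 2 per group; log2 fold change -0.75 ± 0.0675 SE). SLC7A8 (chromosome 14, 23125295 to 23183674, reverse strand), which encodes LAT2 with a broader choice of neutral amino acids, had 3200 and 2678 counts with DMSO and 1643 and 1656 with dBET1. It fell from 96.7 ± 1.96 to 54.5 ± 0.351 CPM (mean ± SD, n = 2 per group), or -0.83 ± 0.0801 (SE) as a log2 fold change. SLC7A6 (chromosome 16, 68264516 to 68301823, forward strand), the y+LAT2 chain that exchanges cationic for neutral amino acids, had 4496 and 3910 counts with DMSO and 2396 and 2340 with dBET1. In none of the 3 genes did the groups overlap. SLC7A6 fell from 138 ± 0.956 to 78.2 ± 2.25 CPM (mean ± SD, n = 2 per group), or by 0.82 on the log2 scale. It shares 3372 exon bases with SLC7A6OS on the other strand, whose counts were 1308 and 755 with DMSO and 572 and 1037 with dBET1.

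The cystine and glutamate exchanger xCT, encoded by SLC7A11, was not called. It had 654 and 426 counts with DMSO and 475 and 467 with dBET1, and in CPM the DMSO libraries again lay on both sides of the dBET1 libraries. The log2 fold change of SLC7A11 was -0.18, and -0.40 without DMSO replicate 2. SLC7A7, the y+LAT1 chain, had 16 to 26 counts per library and was not called. The chains SLC7A10 and SLC7A13 were at 0 in all libraries, and SLC7A9, the partner of SLC3A1, had 4 and 0 counts with DMSO and 0 and 2 with dBET1.

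The heavy chain and its partners can be set against each other within each library on the scale of CPM per kilobase of exon. SLC7A5 stood at 1.98 and 1.83 times SLC3A2 in the DMSO libraries and at 0.934 and 0.944 times in the dBET1 libraries. SLC7A5 mRNA was above SLC3A2 mRNA in both DMSO libraries and slightly below it in both dBET1 libraries. The ratio of SLC7A5, SLC7A6, SLC7A7, SLC7A8, SLC7A10 and SLC7A11 together to SLC3A2 was 2.72 and 2.51 with DMSO and 1.27 and 1.29 with dBET1, a drop of 1.03 on the log2 scale. Against SLC3A2 the log2 change was -1.097 for SLC7A6, -1.102 for SLC7A8 and -0.46 for SLC7A11. A ratio within a library is free of the scaling between libraries, though not of the exon lengths used.

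**Figure D3:**
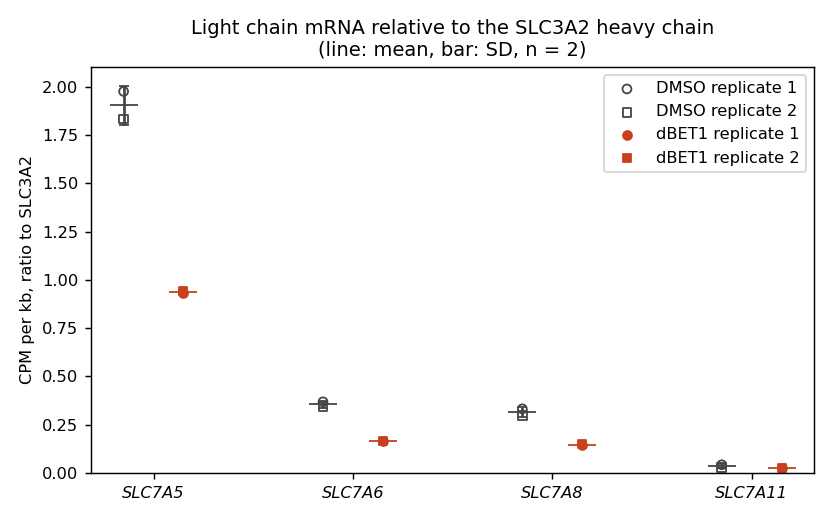
Ratio of CPM per kilobase of exon of 4 light chains to that of SLC3A2, with 1 point per library, the mean as a line and the SD as a bar (n = 2 in each group). The SLC7A5 ratio is 1.91 ± 0.101 (SD) with DMSO and 0.939 ± 0.00711 (SD) with dBET1.

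Cationic amino acids enter mainly through SLC7A1, which encodes the arginine and lysine carrier CAT1 (chromosome 13, 29509414 to 29595688, reverse strand). It had 4795 and 3611 counts with DMSO and 2388 and 2341 with dBET1. SLC7A1 fell from 138 ± 13.05 to 78.1 ± 2.04 CPM (mean ± SD, n = 2 per group; log2 fold change -0.82 ± 0.0907 SE), without overlap. The related SLC7A2 and SLC7A3 were at 0 in all libraries, and SLC7A14 had 2 counts in 1 dBET1 library. SLC7A4, for which no transport activity is well established, had 3 and 2 counts with DMSO and 21 and 14 with dBET1. The SLC7A4 ratio of 7.02 has an exact 95% interval of 2.74 to 22.9 (Clopper-Pearson), which covers counting error only. Its call was lost with DESeq2 and without dBET1 replicate 1, and it was not tested with at least 10 counts required in every library. With counts divided by 2 it was not tested either. SLC7A4 shares 150 exon bases with the antisense gene ENSG00000226872, which had 0 counts in both DMSO libraries and 11 and 10 with dBET1. Without strand in the counting, reads of the 2 genes cannot be told apart.

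Of the SLC43 family, 1 member was called. SLC43A3 (ENSG00000134802; chromosome 11, 57406954 to 57427580, reverse strand), whose product carries purine nucleobases rather than amino acids, had 18465 and 15422 counts with DMSO and 5748 and 5742 with dBET1. It fell from 557 ± 12.1 to 190 ± 2.42 CPM (mean ± SD, n = 2 per group; log2 fold change -1.55 ± 0.0691 SE), which is 2.94-fold lower and without overlap. It shares 1349 exon bases with ENSG00000254979 on the same strand, a gene with 36 to 453 counts per library. SLC43A1 and SLC43A2 encode LAT3 and LAT4, the facilitated carriers of leucine and other large neutral amino acids. SLC43A1 had 1233 and 1057 counts with DMSO and 1029 and 1080 with dBET1. Neither was called: SLC43A1 was at 37.7 ± 0.123 CPM with DMSO and 34.8 ± 0.773 CPM with dBET1 (mean ± SD, n = 2 per group), and SLC43A2 was at 5.87 and 5.90 CPM on average.

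Members with a lysosomal product were put side by side after their values were seen, with no test of them as a group, and they did not all move alike. SLC36A1 (ENSG00000123643; chromosome 5, 151437046 to 151492379, forward strand) encodes PAT1, a proton-coupled carrier of small amino acids that is found on lysosomes and at the plasma membrane. It had 730 and 534 counts with DMSO and 1101 and 1089 with dBET1, with no overlap between the groups. SLC36A1 rose from 20.7 ± 2.38 to 36.2 ± 0.715 CPM (mean ± SD, n = 2 per group; log2 fold change 0.81 ± 0.118 SE). SLC38A9, the lysosomal carrier that reports arginine to mTORC1, rose from 12.2 ± 0.480 to 17.2 ± 0.230 CPM (mean ± SD, n = 2 per group; log2 fold change 0.49). The SLC38A9 call was lost with DESeq2, without a count filter and when either dBET1 library was left out. SLC38A7, a lysosomal glutamine carrier, had 765 and 620 counts with DMSO and 840 and 785 with dBET1. Its dBET1 libraries were both above the DMSO libraries, at 26.9 ± 1.61 against 22.8 ± 0.977 CPM (mean ± SD, n = 2 per group), but its log2 fold change of 0.24 ± 0.114 (SE) was not called. SLC38A7 was called with scaling by total counts (0.45) and with at least 10 counts required in every library (0.31). SLC36A4, a relative of SLC36A1 on endosomes and lysosomes, had 4 and 8 counts with DMSO and 0 in both dBET1 libraries, too few to be tested. Outside the 41 genes, SLC66A1, the lysosomal exporter of lysine and arginine, rose from 23.6 ± 0.901 to 41.3 ± 0.496 CPM, and CTNS, the lysosomal cystine exporter, rose from 15.2 ± 0.818 to 31.5 ± 1.51 CPM (mean ± SD, n = 2 per group). These 2 genes were also set here after their values were seen.

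The remaining SLC38 members differed among themselves. SLC38A10 (chromosome 17, 81244811 to 81295547, reverse strand), a broadly expressed member found inside the cell, had 3439 and 3248 counts with DMSO and 4192 and 4654 with dBET1. It rose from 110 ± 7.20 to 146 ± 9.04 CPM (mean ± SD, n = 2 per group; log2 fold change 0.40), and the call was lost without dBET1 replicate 2. SLC38A6 had 165 to 170 counts with DMSO and 86 to 116 with dBET1 and fell by 0.73 on the log2 scale. Its call was lost under 5 of the 11 other settings, among them DESeq2, the fit without DMSO replicate 2 and the fit without dBET1 replicate 1. SLC38A8 and SLC38A11 were at 0 in all libraries. SLC6A9, which encodes the glycine transporter GlyT1, had 689 and 532 counts with DMSO and 489 and 468 with dBET1. It was at 20.02 ± 1.54 and 15.8 ± 0.681 CPM (mean ± SD, n = 2 per group), and its log2 fold change of -0.34 ± 0.131 (SE) was not called. With the size factors of DESeq2 in edgeR, SLC6A9 was called at -0.36. Of the other SLC36 genes, SLC36A2 had 4 counts in 1 dBET1 library and SLC36A3 had none. For these genes 3 counts correspond to between 0.0919 and 0.107 CPM, the level below which 0 counts cannot tell a low gene from a silent one.

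**Figure D4:**
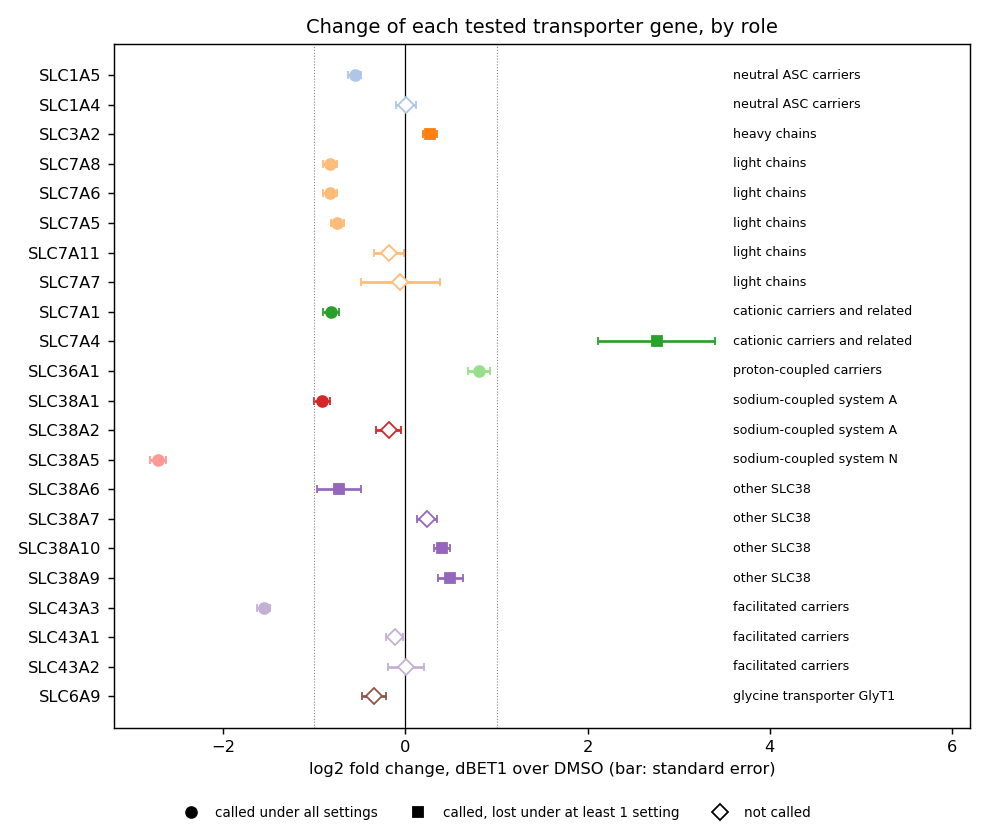
log2 fold change of dBET1 over DMSO for the 22 tested transporter genes, ordered by role, with the standard error as a bar, a positive value meaning higher with dBET1. Filled circles are genes called under all settings, and filled squares are genes whose call was lost under at least 1 setting. Open diamonds are genes not called. SLC38A5 lies at -2.71, and the SLC7A4 value of 2.76 rests on 5 counts with DMSO.

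Of the 14 called members, 9 were called under all 11 other settings. They were SLC36A1, which was higher, and SLC1A5, SLC7A1, SLC7A5, SLC7A6, SLC7A8, SLC38A1, SLC38A5 and SLC43A3, which were lower. The 5 whose call was lost at least once were SLC3A2, SLC7A4, SLC38A6, SLC38A9 and SLC38A10.

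Levels of different genes were compared per kilobase of exon. With DMSO the order was led by SLC1A5 at 212 ± 7.51, SLC43A3 at 123 ± 2.68, SLC7A5 at 97.8 ± 0.442, SLC38A5 at 64.0 ± 4.02 and SLC3A2 at 51.4 ± 2.96 CPM per kilobase (SD, n = 2). With dBET1 it was led by SLC1A5 at 144 ± 5.53, SLC3A2 at 62.0 ± 1.79, SLC7A5 at 58.3 ± 1.24 and SLC43A3 at 42.0 ± 0.536 CPM per kilobase (SD, n = 2). SLC1A5 kept the first place, SLC3A2 moved from the fifth to the second, and SLC38A5 moved from the fourth to rank 11 at 9.77 ± 0.402 CPM per kilobase (SD, n = 2). Neighbours in the order whose means ± SD overlapped were SLC7A6 and SLC7A1 in both groups, SLC38A2 with SLC7A6, SLC7A1 with SLC7A8, and the run from SLC6A9 through SLC1A4 and SLC38A7 to SLC36A1 with DMSO. With dBET1 they were SLC38A10 with SLC38A1, SLC7A1 with SLC43A1, SLC43A1 with SLC38A5, and SLC38A6 with SLC43A2.

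Motifs of 3 regulators of amino acid transport were looked for in the RefSeq promoter table (GRCh38.p14), which holds 300 bases around each start, 250 before and 50 after it. The table had an entry for 32 of the 41 members. The E-box CACGTG, the hexamer bound by MYC and related factors, was found on 16.7% of the 54 member promoters, beside 7.26% of all 35116 promoters. Counted by gene, 8 of 19 tested members in the table held it (42.1%), beside 12.5% of 10976 tested genes. Of the members with an entry it was in 4 of 8 called lower, 1 of 4 called higher and 3 of 7 not called, so it was found in members of each kind. Members with several starts have more windows, and a match is a description of the letters and not a bound site.

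The windows below are shown because they hold the E-box of the 4 members called lower and of the 1 called higher. Each has 30 bases, 5′ to 3′ on the gene's strand, with the E-box in capitals. Distances are from the start that the promoter table lists, and an internal start is one inside the gene's GENCODE bounds. The SLC38A5 window lies within the stretch printed for that gene.
SLC38A5, chrX:48470449-48470478, reverse strand, 206 bases before the start: tcctgtagcggaCACGTGgcttgcctggga
SLC7A5, chr16:87869620-87869649, reverse strand, 130 bases before the start: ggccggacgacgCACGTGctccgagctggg
SLC1A5, chr19:46787326-46787355, reverse strand, 50 bases before an internal start: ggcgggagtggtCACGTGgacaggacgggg
SLC7A8, chr14:23154505-23154534, reverse strand, 129 bases before an internal start: cacaattagaaaCACGTGctcagttccttc
SLC36A1, chr5:151447548-151447577, forward strand, 43 bases before an internal start: cgctcaagggagCACGTGacctcggcctct
SLC36A1, chr5:151447583-151447612, forward strand, 8 bases before the same internal start: gggcggtgggatCACGTGatgaggtccgga

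The C/EBP-ATF response element, through which ATF4 acts when amino acids are short, was searched as TGATGNAAN on both strands. It was found on 11.1% of the member promoters, beside 3.61% of all promoters, and in 5 of 19 tested members (26.3%), beside 2.58% of tested genes. Those 5 were SLC1A5, SLC38A1 and SLC7A1, which were called lower, SLC3A2, which was called higher, and SLC1A4, which was not called. The windows of these genes follow with the match in capitals, which for SLC3A2 and SLC1A4 is on the opposite strand. No match of a member shared bases with a match of another motif.
SLC1A5, chr19:46784892-46784921, reverse strand, 97 bases before another internal start: aggaagtggcTGATGCAAGctgtccagggt
SLC38A1, chr12:46266501-46266530, reverse strand, 4 bases before an internal start: cagacccgaaTGATGAAAAgggatcagcta
SLC7A1, chr13:29595662-29595691, reverse strand, 7 bases after the start: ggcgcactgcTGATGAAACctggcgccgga
SLC3A2, chr11:62881719-62881748, forward strand, 36 bases after an internal start: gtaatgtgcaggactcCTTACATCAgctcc
SLC1A4, chr2:64989381-64989410, forward strand, 8 bases before an internal start: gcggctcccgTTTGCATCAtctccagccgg

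The antioxidant response element, bound by the factor encoded by NFE2L2, was searched as TGACNNNGC on both strands. It was found on 13% of the member promoters, beside 13.3% of all promoters, and in 6 of 19 tested members (31.6%), beside 19.2% of tested genes. Of the members with an entry it was in 4 of 8 called lower, 1 of 4 called higher and 1 of 7 not called. Those called lower were SLC1A5, SLC7A1, SLC7A5 and SLC7A6, and SLC7A7 was not called. Only the match of SLC3A2, the member called higher, is shown, and it does not stand for the others.
SLC3A2, chr11:62881652-62881681, forward strand, 37 bases before an internal start: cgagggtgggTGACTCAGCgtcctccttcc
The mRNAs of the 3 factors were lower with dBET1. MYC fell from 455 ± 14.2 to 274 ± 6.30 CPM, ATF4 from 249 ± 4.76 to 196 ± 4.66 CPM and NFE2L2 from 140 ± 6.22 to 107 ± 5.51 CPM (mean ± SD, n = 2 per group).

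Lists of genes that handle the same amino acids were counted beside the transporters, each against the same 27.6% lower and 28% higher of all tested genes. Of 11 tested mitochondrial amino acid carriers, 9 were called lower and 1 higher, with a median log2 fold change of -0.64. The aspartate and glutamate carrier SLC25A13 fell from 80.4 ± 3.63 to 32.5 ± 1.18 CPM and the glutamate carrier SLC25A22 from 66.8 ± 7.37 to 26.1 ± 2.89 CPM (mean ± SD, n = 2 per group). The serine carrier homologue SFXN2 and the cationic carrier SLC25A29 also fell past the limit, by 1.12 and 1.11 on the log2 scale. The higher gene was SLC25A18, another glutamate carrier, with 8 and 18 counts with DMSO and 43 and 89 with dBET1. Its DMSO libraries alone were too low for the count filter, so it owes its place in the test to the dBET1 libraries, where it is high. The SLC25A18 call was lost without a count filter and without dBET1 replicate 2.

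Of 11 tested enzymes of glutamine and glutamate metabolism, 7 were called lower and 1 higher, and the lower calls were 4 without dBET1 replicate 1. PYCR1, which closes the route from glutamate to proline, fell from 307 ± 28.7 to 87.5 ± 0.0704 CPM (mean ± SD, n = 2 per group; log2 fold change -1.81). ALDH18A1, which opens that route, fell by 1.00 and the mitochondrial aspartate aminotransferase GOT2 by 1.12 on the log2 scale. The alanine aminotransferase GPT rose by 1.85 from a mean of 1.502 CPM. Of 6 cystine and glutathione enzymes, CBS, which makes cystathionine, fell from 152 ± 18.2 to 49.6 ± 6.93 CPM, and GCLC, the catalytic subunit of the first step of glutathione synthesis, rose from 21.1 ± 1.88 to 42.5 ± 1.35 CPM (mean ± SD, n = 2 per group). Of 7 branched-chain amino acid enzymes, 3 were called lower and 1 higher (0 higher without dBET1 replicate 1), and the cytosolic aminotransferase BCAT1 fell from 165 ± 3.95 to 70.6 ± 2.69 CPM (mean ± SD, n = 2 per group).

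Of 9 genes of the response to amino acid deprivation, 5 were called lower and 1 higher. TRIB3, which is induced by ATF4 and feeds back on it, fell from 110 ± 2.29 to 40.1 ± 3.17 CPM (mean ± SD, n = 2 per group). ASNS, asparagine synthetase, was the higher gene, at 95.2 ± 5.91 CPM with DMSO and 115 ± 2.01 CPM with dBET1 (mean ± SD, n = 2 per group). The ASNS call was lost with DESeq2, without a count filter and when either dBET1 library was left out.

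Of 32 tested genes of amino acid sensing by mTORC1, 14 were called lower and 8 higher, with a median log2 fold change of -0.065. Without dBET1 replicate 1 the counts were 8 lower and 4 higher, and without dBET1 replicate 2 the higher genes were again 4. The lower genes past the limit were LAMTOR4 of the lysosomal Ragulator complex, MLST8 of the kinase complex itself, and SEC13 and SEH1L of GATOR2. The higher genes past the limit were the Rag GTPase RRAGC, which rose from 18.7 to 45.6 CPM, SESN3, a relative of the leucine sensor, which rose from 5.19 to 25.8 CPM, and CASTOR2, which rose from 2.22 to 10.9 CPM. CASTOR2 has near-identical copies in the genome, so its counts are uncertain.

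**Figure D5:**
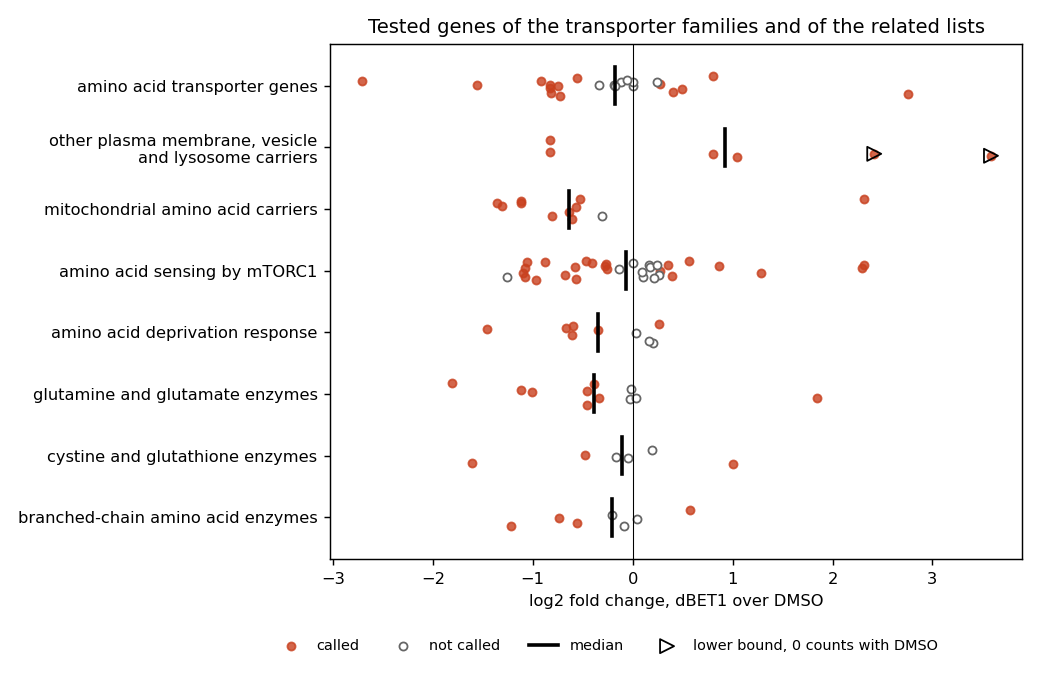
log2 fold change of dBET1 over DMSO for the tested genes of the transporter families and of 7 related lists, with filled points for called genes, open points for genes not called and a bar at the median of each list. The medians run from -0.64 for mitochondrial carriers to 0.93 for the other plasma membrane, vesicle and lysosome carriers. The 2 triangles in that list are lower bounds for genes with 0 counts in both DMSO libraries. These 2 genes entered the test only through the dBET1 libraries and are counted in the 0.93.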

How the data were processed

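The authors aligned paired-end reads to hg38 with HISAT2 2.2.0, estimated abundances with StringTie and deposited 1 whole-number count per gene and library, not normalized. Columns headed NC were taken as the DMSO samples, the only group without dBET1. The step from StringTie to counts and its strand setting are not given in the sources used here. Symbols and coordinates came from GENCODE release 44, in which 56105 of 64252 identifiers were found. Counts were fitted with edgeR 4.0.16 (limma 3.58.1, R 4.3.3), with filterByExpr, TMM factors (0.918 to 1.08), the quasi-likelihood test on the group alone and Benjamini-Hochberg adjustment over 17971 genes. CPM used the normalized library sizes. The SE was the fold change divided by the square root of F. Thresholds are those of the study's methods, which used DESeq2. Libraries within a group differed beyond sampling noise (chi-square per degree of freedom 23.6 with DMSO, 8.14 with dBET1), and intervals and limits cover counting error only.

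The members and lists were chosen with earlier results of these data known. Every member is named, with full values for those past both thresholds or at 20 CPM or more in a group, and of the lists the genes past both thresholds, apart from genes that are not reported here and were left out of the lists. The RefSeq promoter table (GRCh38.p14) had no entry for SLC1A2, SLC3A1, SLC7A2, SLC7A3, SLC7A4, SLC7A11, SLC7A13, SLC38A3 and SLC43A3. The fit was also run on simulated counts as a check of its steps. Far fewer genes were changed there than were called here, so that run does not vouch for these calls. Alternatives were DESeq2 1.42.0, its size factors, total counts, other count filters, a replicate block, halved counts and each library left out.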

Additional observations from a re-analysis of the deposited data

How the results depend on the processing

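Groups of 2 libraries, numbered alike but not shown to come from separate cultures, limit every value. Same-numbered libraries did not deviate together (r = 0.0023 over 17971 genes), and with the replicate block the counts were again 5 higher and 9 lower, with a median of -0.17. Of 240 values of single members under the 11 alternatives, 198 kept their direction and their side of the threshold, 15 lost the call, 6 gained it and 21 changed sign, all of them of members not called. Scaling by total counts alone moved the median of all genes from 0.048 to 0.26 and that of the tested members from -0.18 to 0.026. Nothing is read from the gap between these medians, since the families were picked from this comparison. The cause of other changes was not tested.

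The number of higher members was 3 with DESeq2, 3 without a count filter and 2 to 5 with a library left out. Higher members past the fold limit numbered 0 with DESeq2, 2 with total counts, 0 with at least 10 counts in every library, 0 with counts divided by 2 and 0 to 1 with a library left out. Lower members past the limit numbered 2 to 3 and the median ran from -0.40 to -0.0027 with a library left out.

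Among members not called, SLC1A4 was at -0.028 with DESeq2, -0.0079 with its size factors and -0.048 without a filter, and SLC43A2 at -0.029, -0.0089 and -0.048. With total counts SLC38A2 was at 0.023, SLC43A1 at 0.10, SLC7A11 at 0.029 and SLC7A7 at 0.15, and SLC7A7 was at 0.013 with at least 10 counts. With a library left out SLC1A4 ran from -0.10 to 0.062, SLC38A2 from -0.43 to 0.039, SLC43A2 from -0.065 to 0.055, SLC7A11 from -0.40 to 0.011 and SLC7A7 from -0.30 to 0.19.

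Of the lists, the deprivation response had 0 higher genes with DESeq2 and without a filter, 2 with total counts and 0 to 1 with a library left out. mTORC1 sensing had 5 higher genes with DESeq2, 5 higher without a filter and 8 lower with total counts, and with a library left out 8 to 15 lower and 4 to 8 higher. Glutamine enzymes had 4 lower with total counts and 4 to 7 with a library left out. Mitochondrial carriers had 0 higher without a filter, 0 with at least 10 counts and 0 to 1 with a library left out, other carriers had 2 higher with at least 10 counts, and branched-chain enzymes had 0 to 1 higher with a library left out.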

Other observations

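Carriers of the SLC6 and related families outside the 41 genes, taken from the list of other plasma membrane, vesicle and lysosome carriers, were called in both directions. Of 13 genes 6 were tested, and 4 were called higher and 2 lower. Of those 4, SLC6A20 and SLC6A17 entered the test only through the dBET1 libraries, where they are high. With at least 10 counts required in every library, 2 were higher and 2 lower. The median log2 fold change of 0.93 counts SLC6A20 and SLC6A17, so it is not read as a rise of the list. SLC6A6, the taurine carrier, fell from 124 ± 10.9 to 70.2 ± 9.51 CPM (mean ± SD, n = 2 per group). SLC6A19, the neutral amino acid carrier of kidney and gut, fell from a mean of 60.1 to 33.8 CPM. SLC6A20, a carrier of proline and other imino acids, had 0 counts in both DMSO libraries and 45 and 27 with dBET1, which is at least 12.01-fold higher against 3 counts in each DMSO library. SLC6A17, a vesicular carrier of neurons, had 0 counts in both DMSO libraries and 22 and 10 with dBET1, which is at least 5.34-fold higher on the same limit. CTNS and SLC66A1 are the other 2 higher genes of the list.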
